A study of Sus scrofa with 55 samples.

Results

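Deadenylation and mRNA decay genes remove the poly(A) tail and then the body of a messenger RNA. The 37 genes listed for this pathway were looked up by their pig gene symbol in a count table of 25880 Ensembl genes, and 34 were found. BTG2, LSM1 and TUT7 matched no symbol there and are not analysed here. The 34 members comprise 11 of 11 CCR4-NOT subunits, 3 of 3 genes of the PAN and PARN deadenylases, 9 of 10 adaptors, 7 of 8 decapping factors, 3 of 3 exonucleases and 1 of 2 uridylation enzymes. They were measured in 55 pig oocytes by Smart-seq2, a protocol that copies whole transcripts of 1 cell into cDNA, here from the cytoplasm with 16 PCR cycles.

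The oocytes came from antral follicles at 5 stages, with 11, 12, 11, 11 and 10 oocytes at stages 1 to 5. The donors were 4 wild-type Landrace and Yorkshire gilts, aged 208 to 210 days. Every gilt had been given 5 IU of PMSG, a gonadotropin that drives follicle growth, and its ovaries were collected 48 h later, so that no stage served as an untreated control. Gilt 201 gave 14 oocytes, gilt 205 gave 9, gilt 801 gave 12 with none at stage 5, and gilt 803 gave 20. Only 1 oocyte came from gilt 205 at stage 1 and at stage 2, from gilt 801 at stage 3 and from gilt 201 at stage 4.

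A growing oocyte builds up a store of stable maternal messages and then stops transcription, after which it can change its message content only by storing, translating or destroying what it holds. Destruction usually begins when the CCR4-NOT complex or the PAN2-PAN3 complex shortens the poly(A) tail. Adaptor proteins bring these deadenylases to chosen messages, the cap is then removed by the DCP2 enzyme and its helpers, and exonucleases degrade what is left from either end. BTG4, an oocyte-enriched adaptor, is known in mice for clearing maternal messages during meiotic maturation.

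The libraries were uneven, and this touches each value that follows. Total counts ran from 151104 to 38282850 per oocyte, and the mitochondrially encoded share of counts from 2.104% to 91.8%. Granulosa and cumulus markers, which belong to the somatic cells around the oocyte, held more counts than oocyte markers in 13 libraries, of which 12 were of gilt 803 and 1 of gilt 801. Over nuclear-encoded counts, the summed granulosa and cumulus markers ran from 158 to 34888 CPM in gilt 803 and from 97.0 to 21279 CPM in the other gilts, and the oocyte markers from 197 to 60889 CPM in gilt 803 and from 1319 to 341581 CPM in the others. All 18 oocyte markers in the table had counts in both sets of libraries, and of the 21 granulosa and cumulus markers AMH had none in either and LHCGR none in gilt 803. Fewer oocyte transcripts and more RNA from attached cells cannot be told apart in such libraries. Between 9 and 34 members had a count in a library, with a median of 28, and all 34 had one in 6 libraries. A library at 0 allowed up to 3 counts, which was 0.0784 CPM in the deepest library, 0.247 CPM at the median and 19.9 CPM in the shallowest.

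Single libraries weighed heavily. Of the 34 members, 30 had their highest CPM in a library of gilt 803, and 25 still did when counts were scaled to nuclear-encoded genes only. The share of all genes with their highest value there was not computed, so these counts cannot be read as a trait of the members. Gilt 803 gave 20 of the 55 libraries, with a median mitochondrially encoded share of 11.5%, against 71.0% over all libraries. The stage 5 gilt 803 oocyte 4, with 21707228 counts and not rich in granulosa markers, held the highest value of 8 members: CNOT4, CNOT6L, CNOT7, PAN3, TOB2, ZFP36, UPF1 and XRN1. The shallowest library, stage 2 gilt 803 oocyte 4, held the highest value of BTG1, ZFP36L1, DCP1A and PATL1.

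**Figure D1:**
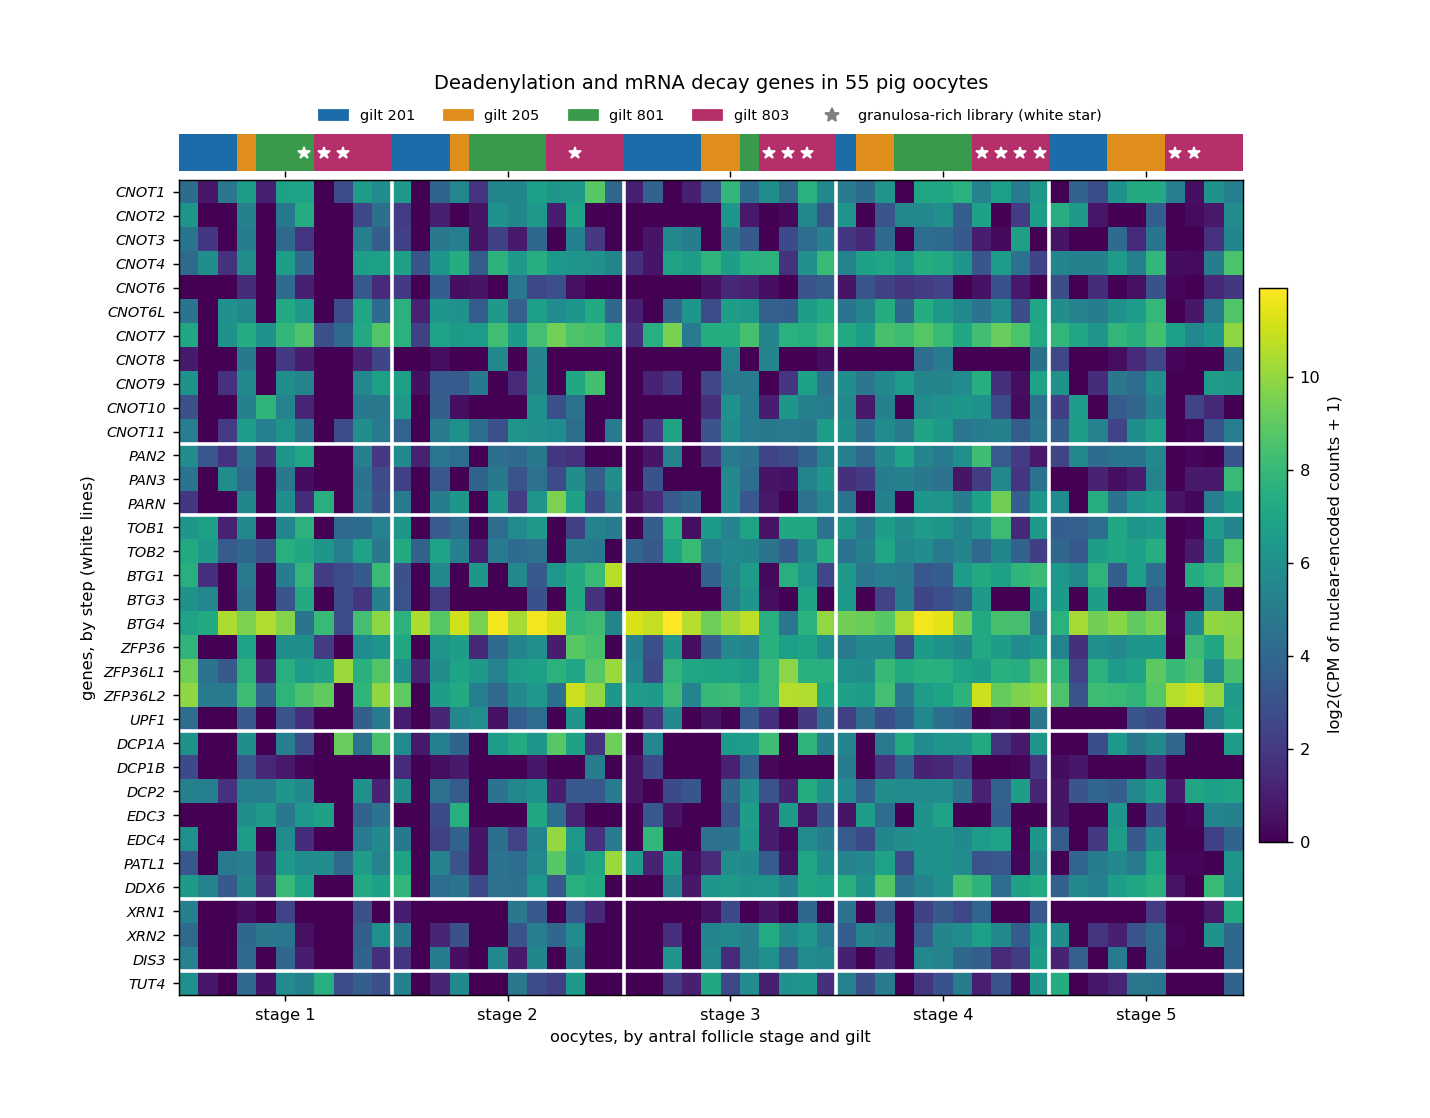
Heat map of the 34 members (rows, by step) in 55 oocytes (columns, by stage and gilt), coloured by log2(CPM of nuclear-encoded counts + 1); the strip gives the gilt, and white stars mark the 13 granulosa-rich libraries. The BTG4 row is bright in most oocytes and darker under the stars, and CNOT6, CNOT8, DCP1B and XRN1 are dark in most columns.

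Levels of different genes are set side by side per unit of transcript length. Per unit of transcript length, in a second deposited table that holds 27 of the 34, BTG4 made up a median of 37.3% of the members' summed value in an oocyte and ranked first in 39 of 55 oocytes. The next genes in the order of medians were ZFP36L2 with 5.54%, CNOT7 with 5.37%, ZFP36L1 with 5.21% and ZFP36 with 2.72%. These neighbours were not separated, as their shares ran over oocytes from 0 to 91.2% for ZFP36L2, from 0 to 24.8% for CNOT7 and from 0.0246% to 67.0% for ZFP36L1. At the low end, DCP1B and XRN1 had a median share of 0. CNOT1, CNOT2, CNOT3, PAN2, EDC3, EDC4 and TUT4 were outside that table and have no place in the order.

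Within the CCR4-NOT complex, 1 deadenylase of each paralog pair held most of the counts in every gilt-by-stage sum. CNOT7 and CNOT8 are alternative catalytic subunits of the DEDD type, and CNOT7 held 96.9% ± 4.82 (SD, n = 19 gilt-by-stage sums) of the counts of the pair. CNOT6 and CNOT6L are the alternative subunits of the EEP type, and CNOT6L held 96.8% ± 2.36 of theirs. Single oocytes with at least 20 counts of the pair varied more, with lowest shares of 50.5% for CNOT7 and 32.6% for CNOT6L. In the length-scaled table the median shares over oocytes were 93.2% for CNOT7 (50 oocytes) and 77.5% for CNOT6L (44 oocytes). Their lowest shares there were 17.3% and 13.7%. The excess of CNOT6L over CNOT6 was thus smaller in that table. The 2 deposited tables differed by more than length, as CNOT8 had a median of 0 CPM but a median share of 0.372% of the members in the length-scaled table. How the authors' counting treated reads that fit both paralogs is not given in the sources used here.

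CNOT7 had counts in 54 of 55 oocytes, with a median of 53.3 CPM, and CNOT8 in 21 of 55, with a median of 0. The gilt-by-stage sums of CNOT7 at stage 1 were 41.6, 36.3, 83.4 and 90.5 CPM in gilts 201, 205, 801 and 803. At stage 5 they were 78.5 CPM in gilt 201, 67.7 CPM in gilt 205 and 216 CPM in gilt 803. Each of these 3 gilts was higher at stage 5 than at stage 1, but the stages overlapped. The fitted change of CNOT7 was 0.92 ± 0.649 on the log2 scale (edgeR, SE, adjusted p = 0.962).

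CNOT6L had counts in 50 oocytes, with a median of 11.5 CPM, against 35 oocytes and 0.326 CPM for CNOT6. Its sums at stage 1 were 9.41, 10.6, 26.1 and 18.6 CPM in gilts 201, 205, 801 and 803, and at stage 5 they were 22.1, 43.1 and 82.6 CPM in gilts 201, 205 and 803. The highest stage 1 value lay above the lowest stage 5 value, while each gilt with both stages was higher at stage 5. The fitted change was 1.65 ± 0.807 (unadjusted p = 0.0505, adjusted p = 0.926 with edgeR), and it was 0.44 without the stage 5 gilt 803 oocyte 4 and 0.12 with limma on the mean log2(CPM + 1) of oocytes, a fit that differs in tool, scale, normalization and weight of oocytes.

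CNOT4, a ubiquitin ligase that binds the complex, had counts in 52 oocytes at a median of 17.7 CPM. Its sums over gilts 201, 205, 801 and 803 were 9.19, 13.3, 11.8 and 31.4 CPM at stage 1 and 39.0, 53.8, 56.2 and 28.8 CPM at stage 3. Stage 5 gave 18.7 CPM in gilt 201, 40.8 CPM in gilt 205 and 75.3 CPM in gilt 803. In gilts 201, 205 and 801 the highest value was at stage 3, and in gilt 803 at stage 5. The fitted change of stage 5 against stage 1 was 1.46 ± 0.752 (edgeR, adjusted p = 0.927), and 0.12 without the stage 5 gilt 803 oocyte 4.

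The values of the other subunits overlapped between every pair of stages, and none had an unadjusted p under 0.05 for any stage. CNOT1, the scaffold of the complex, had 21.3 ± 15.6 CPM over the 19 sums (SD), and its stage means lay between 16.3 and 25.2 CPM. CNOT2 and CNOT3, which form the NOT module, had 13.8 ± 13.8 and 5.73 ± 3.48 CPM. CNOT9, the subunit that contacts several recruiting proteins, had 15.5 ± 10.5 CPM. CNOT10 and CNOT11, which pair at the scaffold's far end, had 9.84 ± 7.13 and 14.3 ± 5.22 CPM. CNOT2 and CNOT10 were at 0 in some sums and reached 50.8 and 27.2 CPM in others, whereas CNOT11 stayed between 6.66 and 23.3 CPM in every sum.

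PARN, a deadenylase that acts without a complex, had the smallest p of the members in the tests of stage 5 against stage 1 and of any stage. Its sums in gilts 201, 205, 801 and 803 were 0.770, 10.0, 5.32 and 8.56 CPM at stage 1, then 9.87, 23.4, 17.4 and 54.6 CPM at stage 2. At stage 3 they were 5.00, 13.6, 2.47 and 3.71 CPM, and at stage 4 they were 8.87, 7.52, 15.6 and 64.9 CPM. Stage 5 gave 33.5, 18.0 and 18.5 CPM in gilts 201, 205 and 803. Every gilt was higher at stage 2 than at stage 1 and lower at stage 3 than at stage 2, and the 3 values of stage 5 lay above the 4 of stage 1.

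In the test over any stage PARN had p = 0.0859 (edgeR F test, adjusted p = 0.976). Between stages 5 and 1 its fitted change was 2.28 ± 1.08 (p = 0.0443, adjusted p = 0.904). Without gilt 201, in which the stage 1 sum was 0.770 CPM, that change was 0.88, and with limma on oocyte means it was 0.24. PARN had counts in 45 of 55 oocytes at a median of 6.93 CPM, and 30.9% of all its counts came from 1 library, stage 4 gilt 803 oocyte 2. Its highest CPM was in another library, stage 2 gilt 803 oocyte 1.

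PAN2, the catalytic subunit of the PAN deadenylase, had 9.76 ± 7.65 CPM over the 19 sums, and PAN3, its RNA-binding partner, had 7.61 ± 11.9 CPM. Both rested on few libraries. Stage 4 gilt 803 oocyte 1 held 39.3% of all PAN2 counts, and stage 5 gilt 803 oocyte 4 held 42.0% of all PAN3 counts. The PAN3 sum of gilt 803 at stage 5 was 53.8 CPM, while gilts 201 and 205 had 0.147 and 5.43 CPM there.

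**Figure D2:**
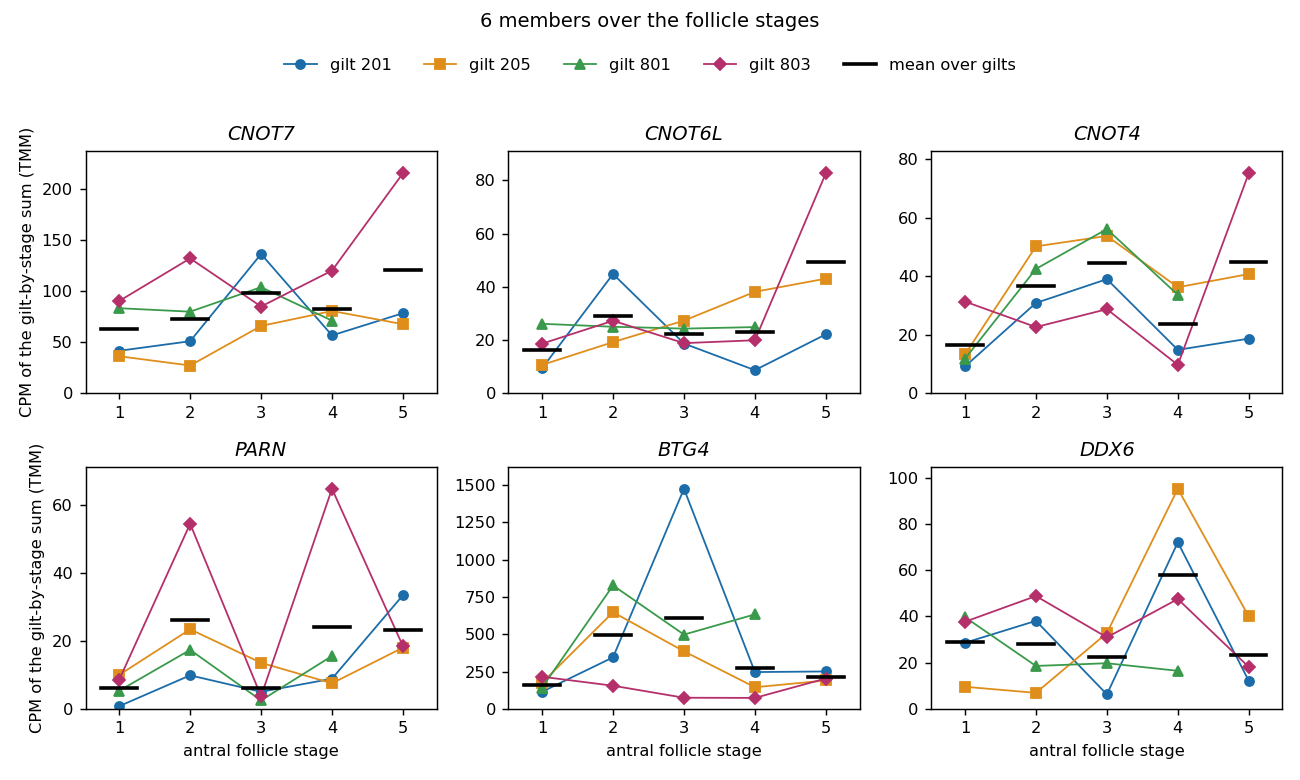
CPM of the gilt-by-stage sums, scaled by TMM (y axis, linear from 0), over antral follicle stages 1 to 5 (x axis) for CNOT7, CNOT6L, CNOT4, PARN, BTG4 and DDX6; coloured points joined by lines are gilts, black bars the mean over gilts. BTG4 is near 114 to 215 CPM in each gilt at stage 1 and spreads from 74.1 to 1476 CPM at stage 3, and the gilt 803 point is the highest at stage 5 for CNOT7, CNOT6L and CNOT4.

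Among the adaptors, BTG4 was detected in 55 of 55 oocytes, from 0.102 to 3188 CPM with a median of 171 CPM. At stage 1 its sums lay close together, at 114, 175, 143 and 215 CPM in gilts 201, 205, 801 and 803. At stage 2 they were 345, 648, 827 and 155 CPM, and at stage 3 they were 1476, 386, 498 and 74.1 CPM. Gilts 201, 205 and 801 were above their own stage 1 value at both stages, and gilt 803 was below its own.

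Stage 4 of BTG4 gave 246, 145, 633 and 73.0 CPM, and stage 5 gave 250, 190 and 203 CPM in gilts 201, 205 and 803. The stage means were 162 ± 43.2, 494 ± 301, 608 ± 605, 274 ± 250 (SD, n = 4 each) and 214 ± 31.8 CPM (n = 3). Stages 1 and 5 overlapped, with a fitted change of 0.44 ± 0.757 (edgeR, adjusted p = 0.996), and the test over any stage gave p = 0.259 (adjusted p = 1.00). With limma on oocyte means the change of stage 5 against stage 1 was -0.32.

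BTG4 also followed the somatic content of the libraries. Over nuclear-encoded counts its median was 150 CPM in the 13 granulosa-rich libraries, which ran from 0.105 to 347 CPM, and 924 CPM in the other 42, which ran from 43.1 to 3867 CPM. Across the 55 oocytes its Spearman rho was -0.49 with the summed granulosa and cumulus markers and 0.52 with the summed oocyte markers. These points share library, depth and gilt, and within the 42 other oocytes the same values were -0.17 and 0.02. Whether BTG4 differed between these oocytes or was diluted by somatic RNA cannot be told apart.

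The other BTG and TOB genes encode proteins that bind CNOT7 or CNOT8 through a shared domain. BTG4 held 71.0% ± 20.6 of the summed counts of BTG1, BTG3, BTG4, TOB1 and TOB2 over the 19 sums, from 34.3% to 97.5%. This share was 49.8% ± 15.9 in gilt 803 (n = 5) and between 72.1% and 82.6% as a mean in the other gilts. TOB1 and TOB2 had 21.7 ± 13.3 and 25.6 ± 22.6 CPM over the 19 sums, and counts in 48 and 52 oocytes. TOB2 at stage 5 had 16.3, 37.5 and 74.9 CPM in gilts 201, 205 and 803.

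BTG1 and BTG3 were patchier. BTG1 had counts in 45 oocytes and BTG3 in 29, with medians of 8.89 and 0.497 CPM, and both were at 0 in the sums of gilt 205 at stage 2 and gilt 201 at stage 3. BTG3 had a fitted change of -1.12 ± 1.80 between stages 5 and 1 (edgeR, adjusted p = 0.996), with sums from 4.89 to 22.9 CPM at stage 1 and of 34.2, 1.35 and 0.610 CPM in gilts 201, 205 and 803 at stage 5. The direction differed between gilts, as gilt 201 was higher at stage 5 and gilts 205 and 803 were lower.

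ZFP36, ZFP36L1 and ZFP36L2 bind AU-rich elements and bring CCR4-NOT to the messages that carry them. ZFP36L2 had counts in 53 oocytes at a median of 72.8 CPM, ZFP36L1 in 55 at 53.6 CPM and ZFP36 in 48 at 12.5 CPM. ZFP36L2 held 55.05% ± 12.2 of the counts of the 3 genes over the 19 sums, and 33.8% at the median over oocytes per length. Their stage 5 against stage 1 changes were small against their error, from -0.39 ± 0.701 for ZFP36L2 to 0.17 ± 0.838 for ZFP36. UPF1, the helicase of nonsense-mediated decay, had counts in 35 oocytes, and its 19 sums ran from 0 to 23.4 CPM.

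Of the decapping factors in the length-scaled table, DDX6 had the highest median share, 0.919%, with DCP1A close behind at 0.835%. DDX6 is a helicase that represses translation and joins CCR4-NOT to the decapping enzyme. Its sums in gilts 201, 205, 801 and 803 were 28.6, 9.52, 39.6 and 37.7 CPM at stage 1 and 72.0, 95.2, 16.4 and 47.5 CPM at stage 4. Stage 5 gave 12.1, 39.9 and 18.1 CPM in gilts 201, 205 and 803. Stage 4 was the highest stage in gilts 201 and 205 but the lowest in gilt 801, and the fitted change of stage 5 against stage 1 was -0.51 ± 0.932 (edgeR, adjusted p = 0.997).

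DCP2, the decapping enzyme, had counts in 49 oocytes and 12.4 ± 8.89 CPM over the 19 sums. DCP1A and DCP1B are its alternative activators, and DCP1A held 92.9% ± 10.2 of their counts, with 56.0% in gilt 201 at stage 4 and at least 83.3% in the other sums. DCP1A sums at stage 1 were 18.4, 13.6, 3.90 and 72.7 CPM in gilts 201, 205, 801 and 803, and at stage 5 they were 0.733, 13.5 and 22.5 CPM in gilts 201, 205 and 803. The stages overlapped, and the change was -1.12 ± 1.03 (edgeR, adjusted p = 0.991) and -0.22 without gilt 201.

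EDC4, a scaffold that links DCP1A to DCP2, had 14.6 ± 13.6 CPM over the 19 sums. Its values at stage 1 ran from 5.07 to 22.6 CPM, and at stage 5 they were 2.93, 13.9 and 2.75 CPM in gilts 201, 205 and 803, a change of -1.21 ± 1.14 (edgeR, adjusted p = 0.995). PATL1, which bridges DDX6 and the decapping enzyme, had 16.2 ± 10.0 CPM. EDC3, an enhancer of decapping, differed more by animal than by stage and is described with the gilts. Of the 7 decapping genes, 2 had a positive and 5 a negative fitted change, at a median of -0.51.

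XRN1 and XRN2 degrade RNA from the 5' end. XRN1, the cytoplasmic enzyme that acts on decapped messages, had counts in 23 of 55 oocytes and a median of 0. A single library, stage 5 gilt 803 oocyte 4, held 57.3% of all XRN1 counts. XRN2, its mainly nuclear relative, had counts in 40 oocytes at a median of 4.21 CPM, and XRN1 held 18.6% ± 26.0 of the counts of the pair. DIS3, a catalytic subunit of the exosome that degrades from the 3' end, had 5.90 ± 4.39 CPM over the 19 sums.

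XRN2 had 7.18 ± 6.40 CPM at stage 5 (SD, n = 3) and 5.95 ± 4.30 CPM at stage 1 (n = 4), a fitted change of 0.67 ± 1.25 (edgeR, adjusted p = 0.997). Without gilt 201 the change was -0.73. TUT4, which adds uridines to shortened tails and so marks them for decay, had counts in 42 oocytes at a median of 2.69 CPM. Its sums at stage 1 were 17.5, 3.57, 10.2 and 6.67 CPM in gilts 201, 205, 801 and 803, and at stage 5 they were 41.2, 4.80 and 2.62 CPM in gilts 201, 205 and 803. The change was 0.17 ± 1.33 (edgeR, adjusted p = 1.00) and -1.299 without gilt 201, the gilt with the highest TUT4 value at both stages.

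Setting stage 5 beside stage 1 addresses whether the decay genes differed in oocytes of the last stage. None of the 34 members passed the test at an adjusted p under 0.05 (edgeR quasi-likelihood on 19 gilt-by-stage sums, gilt in the model), where 0% of the 15637 genes tested passed. At an unadjusted p under 0.05, 1 member passed, PARN, against 5.37% of all genes. DESeq2 on the same sums called 368 genes, none of them a member, and had 3 members at an unadjusted p under 0.05. The 5.37% belongs to edgeR, and the share of all genes under that p with DESeq2 is not reported here. Fitted changes were positive for 18 members and negative for 16, with a median of 0.17, and positive for 42.7% of all genes, with a median of -0.27.

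The split of signs differed between fits. With limma on oocyte means, 9 of the 34 members were positive, at a median of -0.65 against -0.52 for all genes, and without the stage 5 gilt 803 oocyte 4, 15 were positive, at a median of -0.15 against -0.46. Markers of other cells moved in the same comparison without passing the test, with a median change of -1.35 for 19 granulosa and cumulus markers, of which 2 were positive, and of -0.58 for 18 oocyte markers, of which 6 were positive. The medians were -4.01 for 9 theca and stroma markers and -5.74 for 14 markers of blood, immune and endothelial cells. Their part in the members' values was not tested.

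**Figure D3:**
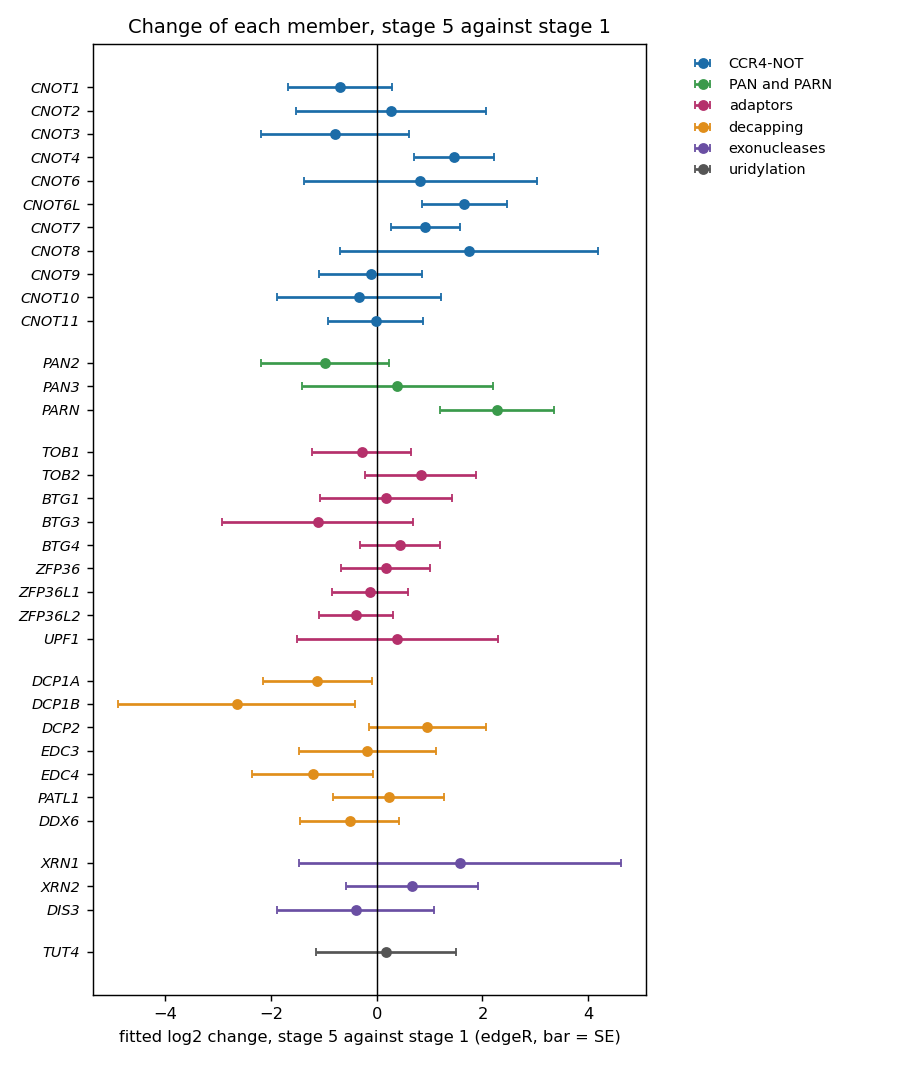
Fitted log2 change of each of the 34 members between stage 5 and stage 1 (x axis, edgeR; bars are 1 SE to each side), grouped and coloured by step (y axis). Changes run from -2.65 for DCP1B to 2.28 for PARN, and no member passed an adjusted p under 0.05.

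A steady trend over the 5 stages gave no called member either, while 2 of the 15637 genes passed, or 0.0128%. None of the members was under an unadjusted p of 0.05 with edgeR, against 5.76% of all genes, and 0 were called by DESeq2 or limma. Slopes were positive for 20 of 34 members, at a median of 0.04 log2 units per stage, and negative for the median of all genes, at -0.06. CNOT7 had 0.22 ± 0.135 per stage, PARN 0.36 ± 0.243 and BTG4 -0.04 ± 0.197. The slopes of DDX6, XRN2 and TUT4 were 0.08 ± 0.213, 0.25 ± 0.265 and 0.03 ± 0.285. In the test over any stage 0 members and 0% of all genes passed, and 0 members were under an unadjusted p of 0.05, against 5.37% of all genes.

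The spread between sums that is left after stage and gilt sets what these comparisons could show. The biological coefficient of variation fitted by edgeR had a median of 0.933 over the members, from 0.625 for CNOT7 to 1.77 for CNOT8, and of 1.28 over all genes. The median standard error of a member's change between stages 5 and 1 was 1.13 log2 units. Changes as large as those of CNOT6L and PARN, at 1.65 ± 0.807 and 2.28 ± 1.08, did not pass.

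A few members passed the tests between gilts, in which other genes of the whole table passed too. At equal stage, 2 of the 34 members differed among the 4 gilts (edgeR F test, adjusted p under 0.05), where 2.17% of all genes did, and 5 had an unadjusted p under 0.05, against 12.6% of all genes. The 2 members called were ZFP36L2 (adjusted p = 0.00467) and EDC3 (adjusted p = 0.0498). ZFP36L2 lost this call without gilt 801, without gilt 803 and without the granulosa-rich libraries, and kept it in the other alternative runs of this test. The comparison of gilt 803 with the mean of the others was chosen because gilt 803 was known to stand apart. There 2 members were called, against 4.68% of all genes. Both were higher in gilt 803, against 4.40% of all genes called higher and 0.281% called lower. At an unadjusted p under 0.05 there were 5 of the 34 members in this comparison (edgeR), against 17.3% of all genes. Whether the members differed from all genes in these shares was not tested.

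ZFP36L2 was the first of the 2 called members. Its sums in gilt 803 at stages 1 to 5 were 215, 523, 599, 409 and 447 CPM. In gilt 201 they were 279, 93.8, 76.2, 43.1 and 128 CPM, in gilt 205 they were 67.6, 46.0, 109, 75.8 and 90.1 CPM, and in gilt 801 at stages 1 to 4 they were 75.6, 19.6, 53.6 and 25.9 CPM. Gilt 803 was above every other gilt at stages 2 to 5 and below gilt 201 at stage 1.

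The fitted difference of ZFP36L2 was 2.72 ± 0.439 (edgeR, adjusted p = 0.000501). Without the 13 granulosa-rich libraries it was 0.79 ± 0.616 (adjusted p = 0.822). Over nuclear-encoded counts ZFP36L2 had a median of 940 CPM in the granulosa-rich libraries and 123 CPM in the other 42, and its rho with the summed granulosa and cumulus markers was 0.60 over 55 oocytes and 0.35 over the 42. Whether its counts in those libraries came from the oocyte or from attached cells cannot be told apart.

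ZFP36 had sums of 19.2, 122, 55.5, 34.1 and 187 CPM in gilt 803 at stages 1 to 5. The other gilts lay between 10.7 and 33.8 CPM in every sum but gilt 201 at stage 1, with 60.8 CPM. Gilt 803 was the highest gilt at stages 2 to 5. The fitted difference was 1.90 ± 0.540 (edgeR, adjusted p = 0.0391), and it was 1.52 ± 0.764 (adjusted p = 0.676) without the granulosa-rich libraries and 2.00 (adjusted p = 0.0516) without the stage 5 gilt 803 oocyte 4. ZFP36 also lost the call with limma on oocyte means (adjusted p = 0.310), with no low-count filter (0.0547) and on leaving out any one of gilts 201, 205 and 801 (0.0539 to 0.326), and kept it with RLE size factors, with DESeq2 and without mitochondrially encoded genes.

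Among the other adaptors, BTG1, BTG3, ZFP36L1 and UPF1 had positive differences, none of which passed, and TOB1, TOB2 and BTG4 had negative ones, of -0.30, -0.40 and -1.17. With limma on oocyte means TOB1 and TOB2 turned positive, at 0.13 and 0.29, and BTG3 negative, at -0.13. BTG1 had sums of 47.4, 60.5, 60.0, 71.9 and 136 CPM in gilt 803 at stages 1 to 5, and from 0 to 49.8 CPM in the other gilts, so that the values overlapped by the single lowest sum of gilt 803. Its fitted difference was 2.62 ± 0.812 (edgeR, adjusted p = 0.0636), and 3.07 ± 1.21 without the granulosa-rich libraries (adjusted p = 0.668), where 5 genes of the whole table passed. The libraries kept there included stage 2 gilt 803 oocyte 4, which held the highest BTG1 value. Over nuclear-encoded counts it had theca and stroma markers at 1566 CPM and oocyte markers at 2564 CPM. ZFP36L1 had a difference of 1.40 ± 0.471 (adjusted p = 0.0961) and the decapping factor DCP1A of 1.66 ± 0.624 (adjusted p = 0.144). With DESeq2, which called more genes of the whole table in this comparison than edgeR did, BTG1, ZFP36L1 and DCP1A also passed. BTG1 passed with no low-count filter and without gilt 201 as well, and ZFP36L1 with limma on oocyte means and without the stage 5 gilt 803 oocyte 4.

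BTG4 had a difference of -1.17 ± 0.598 (edgeR, adjusted p = 0.318) and of -0.24 ± 0.587 without the granulosa-rich libraries. CNOT7 and CNOT9 had differences of 0.87 ± 0.427 (adjusted p = 0.295) and 1.204 ± 0.632 (adjusted p = 0.335). PARN had 1.05 ± 0.671, BTG3 1.5015 ± 1.43, XRN2 1.33 ± 0.770, DDX6 0.40 ± 0.573 and TUT4 0.27 ± 0.846, with no call. In all, 27 of 34 members were positive at a median of 0.61, against 52.7% of all genes at a median of 0.11. In the same comparison 9 of 19 granulosa and cumulus markers passed the test, 16 were positive and their median was 3.13, while 17 of 18 oocyte markers were negative, with 5 called and a median of -1.47. Markers of blood, immune and endothelial cells had a median of 3.86, with 3 of 14 called, and theca and stroma markers one of -0.08, with 1 of 9 called. Apart from the values without the granulosa-rich libraries, the part of these cells in the differences was not tested.

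**Figure D4:**
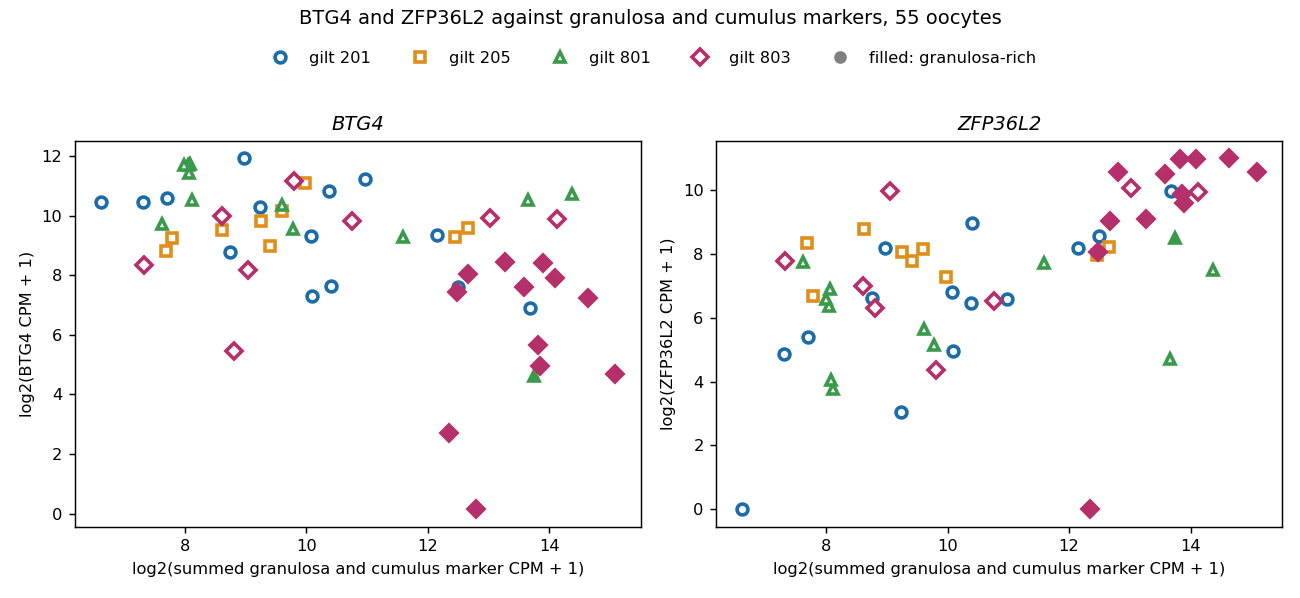
BTG4 (left) and ZFP36L2 (right), as log2(CPM + 1) over nuclear-encoded counts (y axes), against the summed granulosa and cumulus markers on the same scale (x axes) in 55 oocytes; shape and colour give the gilt, filled points the 13 granulosa-rich libraries. Filled points sit low for BTG4, at a median of 150 CPM, and mostly high for ZFP36L2, at a median of 940 CPM.

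EDC3 was lowest in gilt 201. Its sums in gilt 201 at stages 1 to 5 were 0, 0.974, 1.15, 0.206 and 0.147 CPM, and in gilt 801 at stages 1 to 4 they were 18.5, 30.5, 29.8 and 20.8 CPM. In gilt 205 they were 13.7, 54.1, 2.103, 12.4 and 5.96 CPM, and in gilt 803 they were 8.18, 1.01, 26.3, 0.760 and 8.03 CPM. Gilt 201 lay below gilts 205 and 801 at each shared stage, and below gilt 803 too, whose sums of 0.760 and 1.01 CPM were within the range of gilt 201.

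The 14 oocytes of gilt 201 held 33 counts of EDC3 in all, in 5 oocytes, while 7 of 9 oocytes of gilt 205 held 1810 counts 7 of 12 of gilt 801 held 11299 and 14 of 20 of gilt 803 held 3146. Over nuclear-encoded counts the median of EDC3 was 0 in gilt 201, 1.12 CPM in gilt 803, 18.8 CPM in gilt 205 and 46.2 CPM in gilt 801. The oocytes of gilt 201 also had the fewest members with a count, a median of 21.5 against 28 in gilt 205, 31.5 in gilt 801 and 29 in gilt 803. The call of EDC3 among gilts was at the edge of the threshold. It was lost with RLE size factors (adjusted p = 0.0558), without mitochondrially encoded genes (0.0544), with limma on oocyte means (0.110), without the granulosa-rich libraries (0.451) and without gilts 201, 205 or 801 (0.714, 0.104 and 0.125), and kept with DESeq2 (0.00133), with no low-count filter (0.00194), without gilt 803 (0.0434) and without the stage 5 gilt 803 oocyte 4 (0.0497).

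**Figure D5:**
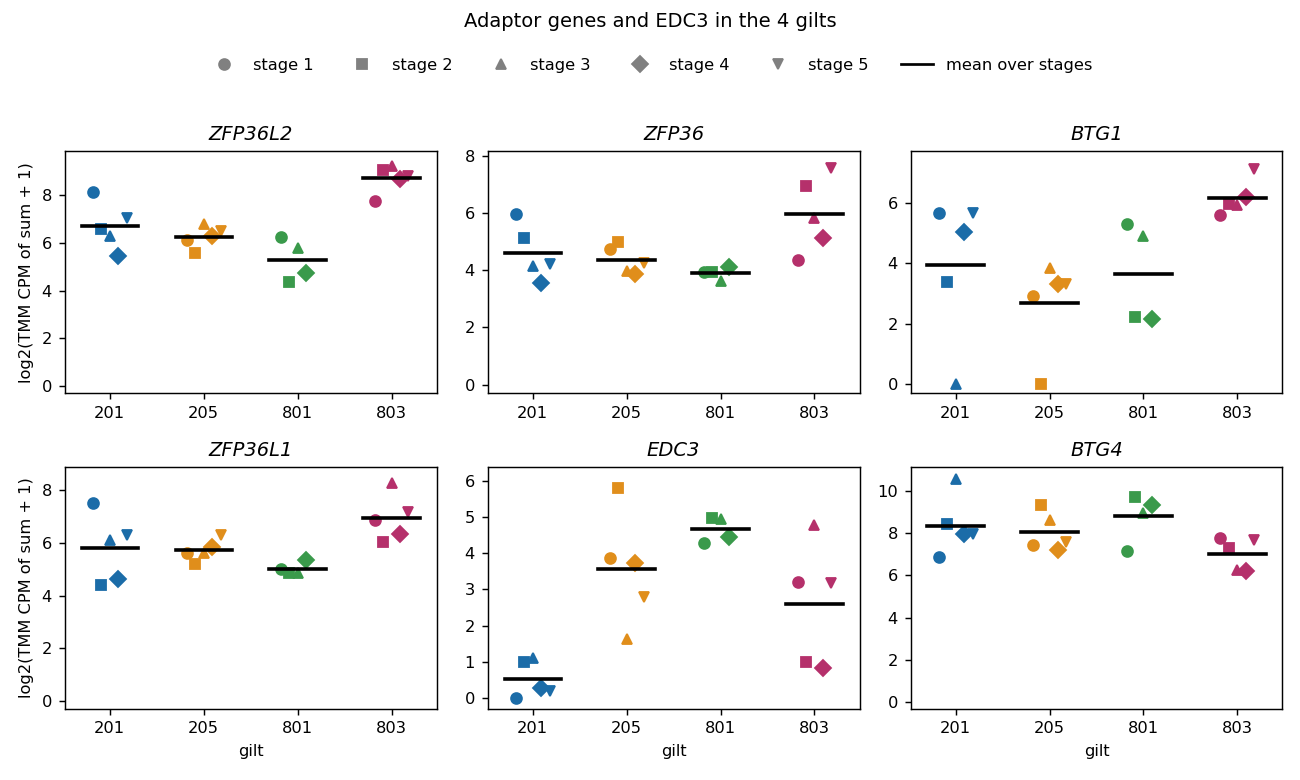
log2(TMM-scaled CPM of the gilt-by-stage sum + 1) (y axes) in the 4 gilts (x axes) for ZFP36L2, ZFP36, BTG1, ZFP36L1, EDC3 and BTG4; shapes give the stage, black bars the mean over stages on this scale. Gilt 803 has the highest bar in the ZFP36L2, ZFP36, BTG1 and ZFP36L1 panels and the lowest in the BTG4 panel, and gilt 201 is near 0 for EDC3.

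A list of 63 further genes of mRNA decay, of which 56 were in the table, gave the setting of the pathway. It holds exosome subunits, other decapping factors, nonsense-mediated decay factors, other recruiting proteins and genes acting on the poly(A) tail. None of the 56 passed in stage 5 against stage 1, where 0 had an unadjusted p under 0.05 with edgeR, and 31 were positive and 25 negative at a median of 0.21. AGO2, the small-RNA-guided slicer, had a change of 1.296 ± 0.739 (edgeR, adjusted p = 0.930). PNRC1, a decapping co-activator, had -1.95 ± 1.22 (adjusted p = 0.934), and ANGEL1 had -2.82 ± 2.23 (adjusted p = 0.973). Of the 8 nonsense-mediated decay genes 7 were positive, at a median of 1.23, and of the 13 exosome genes 4 were, at a median of -0.48, with none passing in either group.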

How the data were processed

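The authors deposited raw counts per Ensembl gene, 1 column per oocyte, with no normalization. A second deposited table, named for TPM, holds length-scaled values in a unit treated as other, whose scale the authors do not state; it was used for order between genes and length-scaled shares, and its last line is incomplete. HISAT2 2.1.0, StringTie 1.2.2, Trim Galore 0.4.3 and featureCounts are named, per the submitters' processing notes. The sources used here give no genome build, annotation or strand setting, and no positions are stated, and reads shared by paralogs or overlapping genes could be split between them.

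Oocytes of the same gilt and stage were added up into 19 sums, because the gilt is the replicate. Levels are CPM (counts scaled to a fixed library total) of each oocyte, or of the sums after TMM scaling, whose factors ran from 0.270 to 3.59. Sums were tested with edgeR 4.0.16 in R 4.3.3 (filterByExpr by stage, glmQLFit, glmQLFTest), with stage and gilt in the model. All 34 members passed the filter. Benjamini-Hochberg adjustment ran over 15637 genes, two-sided, with calls at an adjusted p under 0.05. Changes are log2 ± SE. In the stage tests, p-values measure the spread of the sums that is left after stage and gilt. In the tests between gilts, the stage sums of an animal stand in for replicates. Gilt 803 is a single animal, so those p-values do not measure the spread between animals. DNA methylation, somatic cells and maturation experiments of the study were not analysed here. Gilt is named in the labels and was kept as a block: the mean correlation of deviations from the stage means was 0.0124, 0.136, 0.141 and 0.133 among sums of gilts 201, 205, 801 and 803, and -0.0318 between gilts.

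A library was granulosa-rich where 18 oocyte markers had fewer counts in total than 21 markers of granulosa and cumulus cells. Markers of other cells did not enter this rule. Stage 2 gilt 803 oocyte 3 was thus kept with blood, immune and endothelial markers at 18231 CPM and oocyte markers at 1849 CPM over nuclear-encoded counts. Rank correlations used 55 oocytes and carry no p. The members, lists, comparisons and naming rule were chosen with earlier results of these data known. All members are named. A fitted change was to be printed for a member called, with an unadjusted p under 0.05, with an absolute log2 change of at least 1 and at least 10 CPM, or with the highest CPM of its step; those of the ZFP36 genes between stages 5 and 1, and the ends of the range in the plot, were added after their values were seen. Of the further decay genes, the 2 with the smallest p in each direction were to be named, and 1 of them is not reported here. Alternatives were RLE size factors, DESeq2 1.42.0, no low-count filter, no gilt block, limma 3.58.1 on the mean log2(CPM + 1) of oocytes (which changes tool, scale, normalization and weight of oocytes together), and removal of mitochondrially encoded genes, of granulosa-rich libraries, of each gilt and, added after seeing the data, of stage 5 gilt 803 oocyte 4. Limits for a count of 0 cover counting error only, since PCR copies are not independent molecules.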

Additional observations from a re-analysis of the deposited data

Results flagged for a closer look

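Within a stage, 8 of the 136 member-by-stage groups of 4 gilts had 1 sum set far from the other 3 (its gap to the nearest sum, over the range of the 4, was above Dixon's 95% critical value), and chance gives about 1 in 20. In gilt 201, CNOT9 at stage 3 was low at 0.538 CPM (others 8.36 to 11.9), PAN3 at stage 4 was low at 0.825 CPM (others 5.03 to 6.67), TOB2 at stage 3 was high at 76.8 CPM (others 12.7 to 16.6), DCP1B at stage 4 was high at 12.2 CPM (others 0.272 to 0.458) and PATL1 at stage 3 was high at 26.4 CPM (others 14.5 to 15.7). In gilt 801, CNOT3 at stage 1 was low at 1.86 CPM (others 6.06 to 7.13), and CNOT8 at stage 2 was high at 9.31 CPM (others 0 to 0.0649). In gilt 205, BTG1 at stage 1 was low at 6.61 CPM (others 38.5 to 49.6). The sums of gilt 201 at stage 4 and of gilt 205 at stage 1 each held 1 oocyte.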

How the results depend on the processing

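No member was called in any of the 3 stage comparisons under any alternative run, with the replicate block of gilts or without it. The number of genes called was less stable. DESeq2 called 368 genes for stage 5 against stage 1, 161 for the trend, 47 for any stage, 1006 among gilts and 2492 for gilt 803, with 5 members in the last. Without the low-count filter these were 23 (stage 5 against stage 1), 216 (any stage), 935 (among gilts) and 1156 (gilt 803). The trend, with 2 genes called, had 0 with no replicate block, with limma, without mitochondrially encoded genes and without granulosa-rich libraries. limma called 225 genes among gilts and 353 for gilt 803. Without granulosa-rich libraries 14 genes and 0 members were called among gilts, and 5 genes and 0 members for gilt 803. Among gilts, RLE size factors left 1 member called and removal of mitochondrially encoded genes left 1. Leaving out each gilt gave 0 to 1 genes for stage 5 against stage 1, 0 to 2 for the trend, 0 to 45 for any stage, 27 to 549 with 0 to 2 members among gilts, and 120 to 799 with 1 to 2 members for gilt 803. Signs turned for members that had not passed. For stage 5 against stage 1, limma gave -0.32 for BTG4, -0.43 for XRN2 and -1.39 for TUT4, and leaving out gilts gave -0.73 to 1.34 for XRN2 and -1.30 to 0.63 for TUT4. For the trend, TUT4 was -0.0054 with RLE, -0.0056 with DESeq2, -0.21 with limma and -0.26 to 0.13 on leaving out gilts, where BTG4 ran from -0.12 to 0.042 and DDX6 from -0.15 to 0.20. For gilt 803, BTG3 was -0.13 with limma and -1.67 without granulosa-rich libraries, and TUT4 was -2.77 without them and -0.13 to 0.67 on leaving out gilts. A share of TUT7 could not be given, since TUT7 matched no symbol. Depth limited the members near 0: in the shallowest library 3 counts were 19.9 CPM.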

Other observations

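Over nuclear-encoded counts in 55 oocytes, CNOT9 and DDX6 had a Spearman rho of 0.73, CNOT1 and CNOT6L of 0.70, and ZFP36 and ZFP36L2 of 0.67. BTG4 and ZFP36L2, the members with the first and second highest median per length, had a rho of -0.55. These points share libraries, depth and gilts, and the pairs were picked after their values were seen.

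PABPC1, the main cytoplasmic poly(A)-binding protein, was the 1 gene of the 56 further decay genes called in gilt 803 against the other gilts, at 2.64 ± 0.658 (edgeR, adjusted p = 0.0172), where 4.68% of all genes were called. Without the granulosa-rich libraries it was 0.66 ± 0.907 (adjusted p = 0.935), and the call was also lost without gilt 205 (0.153) or gilt 801 (0.0825). It was singled out after its value was seen. Of the 8 listed genes acting on the poly(A) tail, 2 were positive and 6 negative there, at a median of -0.54. Among the members, rho with the summed granulosa and cumulus markers was highest for ZFP36L2 at 0.60, BTG1 at 0.52 and BTG3 at 0.38, and lowest for BTG4 at -0.49 and CNOT6L at -0.32.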
